A study of Mus musculus with 15 samples.

Results

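The genes described here encode the glutamate receptors of the mouse hippocampus and the auxiliary subunits that travel with them. The set holds 31 genes: the AMPA subunits Gria1 to Gria4, the NMDA subunits Grin1, Grin2a to Grin2d and Grin3a, the kainate subunits Grik1 to Grik5, the delta subunit Grid1, the metabotropic receptors Grm2 to Grm5, Grm7 and Grm8, and the auxiliary genes Cacng2, Cacng3, Cacng4, Cacng7, Cacng8, Cnih2, Cnih3, Neto1 and Neto2. They were found by matching the accession of each array probe to a gene. Of the 31 genes, 30 had a probe and were tested, among 22864 genes tested in all, and no probe resolved to Cacng4. The arrays held RNA of the whole hippocampus, both hemispheres, of male C57BL/6 mice aged about 2.5 months. The 4 dflox controls carried floxed alleles of the glucocorticoid receptor gene (GR, Nr3c1) and of the mineralocorticoid receptor gene (MR, Nr3c2) and no Cre. The knockouts were 4 GREmx1-cre arrays (GR removed), 4 MREmx1-cre arrays (MR removed) and 3 GRMREmx1-cre arrays (both removed), each by Emx1-Cre. As the design is read here, GREmx1-cre mice have no floxed MR allele and MREmx1-cre mice no floxed GR allele, whereas dflox mice have both. Emx1-Cre acts in the progenitors of the dorsal forebrain, so it reaches excitatory neurons and astrocytes, while interneurons and microglia arise elsewhere. The labels number the arrays of a group without saying that each is a separate mouse, so p-values measure the spread between these arrays.

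GR and MR are nuclear receptors for the same adrenal hormone, corticosterone in the mouse. MR binds it tightly and is abundant in hippocampal pyramidal and granule neurons, and GR is occupied at the higher levels of stress. AMPA receptors carry the fast excitatory current, NMDA receptors admit calcium when the neuron is depolarised and start synaptic plasticity, and kainate receptors adjust release and excitability, above all at mossy fibre synapses on CA3 neurons. Metabotropic receptors signal through G proteins: Grm5 excites, and Grm2, Grm3, Grm4, Grm7 and Grm8 lower cyclic AMP and mostly restrain release. Auxiliary subunits set the traffic and gating of the channels. The Cacng genes encode TARPs and the Cnih genes cornichons, both partners of AMPA receptors, and Neto1 and Neto2 are partners of kainate receptors.

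Array intensities were set relative to the 75th percentile of each array, which lay between 821 and 1027, and a level below is a log2 intensity on that scale. Per array, 28083 to 30206 probes gave a signal well above background. Slide and genotype cannot be told apart, since every slide held a single genotype. Nr3c1 stood at -2.24 in GREmx1-cre and -1.64 in GRMREmx1-cre against dflox (log2 fold change). Limma called Nr3c1 higher in MREmx1-cre (0.54, adjusted p = 0.00165). The Nr3c2 probe stood at -0.11 in MREmx1-cre (adjusted p = 0.48) and -0.31 in GRMREmx1-cre (adjusted p = 0.0394), and was called higher in GREmx1-cre (0.42, adjusted p = 0.0212). Against GREmx1-cre it was lower in MREmx1-cre (-0.54, adjusted p = 0.00203) and GRMREmx1-cre (-0.73, adjusted p = 0.000383). Whether this probe lies in the deleted part is not given, so it is no check of the MR deletion. All 18 listed markers of excitatory hippocampal neurons were well above background on every array. Their mean, relative to the mean over all arrays, lay between 0.0237 and 0.326 in dflox and between 0.292 and 0.354 in GREmx1-cre. It was lower in the lines without MR, between -0.314 and -0.200 in MREmx1-cre and between -0.438 and -0.416 in GRMREmx1-cre. This drop was uneven across the list. In MREmx1-cre the 18 changes against dflox had a median of -0.13, a lowest of -2.48 and a highest of 0.65. For GRMREmx1-cre these values were -0.29, -3.61 and 0.54, and 14 of the 18 stood below 0 in each line. In bulk tissue, fewer cells of a type and less RNA per cell cannot be told apart. The part of single genes in this drop was not tested. Microglial markers ran the other way, from -0.249 to -0.130 in dflox, -0.148 to -0.0361 in GREmx1-cre, 0.0697 to 0.188 in MREmx1-cre and 0.165 to 0.340 in GRMREmx1-cre. No listed marker of GABAergic interneurons (10 tested), oligodendrocytes (8) or their progenitors (6) was called against dflox by limma in any knockout, with 0 to 3 of each list at an unadjusted p under 0.05. Astrocyte markers called higher and lower were 2 and 1 of 9 in GREmx1-cre, 2 and 0 in MREmx1-cre and 4 and 2 in GRMREmx1-cre. Of the arrays that stood apart, dflox replicate 3 had the lowest excitatory mean of its group, at 0.0237 against 0.276 to 0.326, and MREmx1-cre replicate 2 a choroid plexus mean of -4.19. GREmx1-cre replicate 1 had the highest mean of thalamic markers, at 0.688, through 1 gene: its Synpo2 level was 1.82 against -5.39 to -4.15 on the other arrays, and its other 6 thalamic markers lay within the range of the other arrays. Of these, Prkcd (1.20) and Zic1 (2.95) were highest on dflox replicate 3. Results were recomputed without dflox replicate 3 and without the other two arrays together. The part of these cell type and array differences in the results below was not tested.

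**Figure D1:**
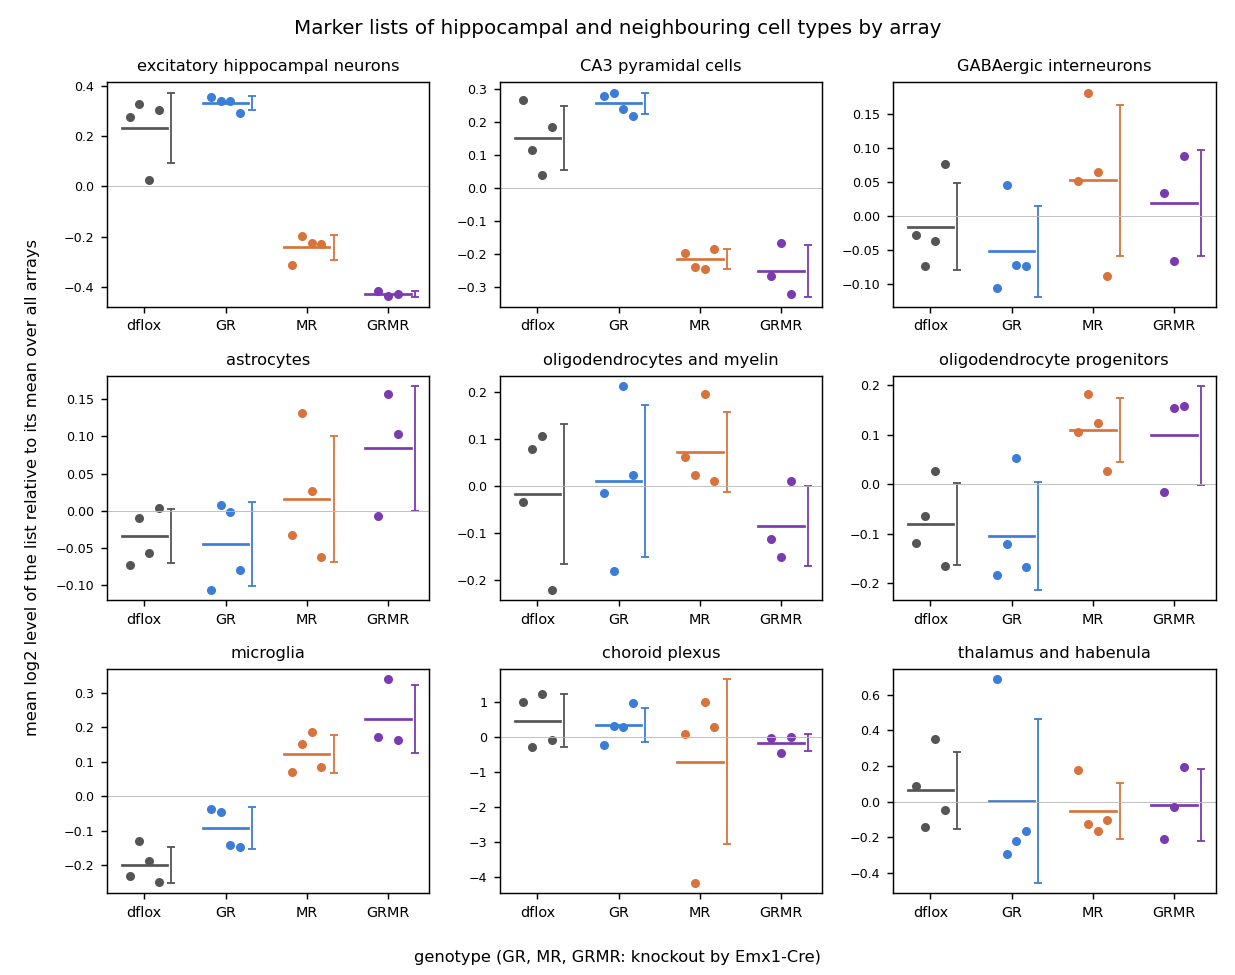
Mean log2 level of each marker list on each array, relative to its mean over all 15 arrays, by genotype; points are arrays, horizontal lines group means and bars the SD. The excitatory list lies from 0.0237 to 0.326 in dflox and from -0.438 to -0.416 in GRMREmx1-cre, and the choroid plexus list of MREmx1-cre replicate 2 lies at -4.19.

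Both lines without MR differed from dflox in several of these genes, in both directions, and GREmx1-cre differed in 1, a share close to that of all genes. Against dflox, limma called 8 of the 30 tested members in MREmx1-cre (26.7%, where 6.81% of all genes tested were called), 10 in GRMREmx1-cre (33.3% against 16.3%) and 1 in GREmx1-cre (3.33% against 3.15%). In MREmx1-cre 4 members rose and 4 fell, where 4.21% of all genes rose and 2.6% fell. In GRMREmx1-cre 4 rose and 6 fell, where 11.4% of all genes rose and 4.84% fell. In GREmx1-cre 0 rose (background 2.27%) and 1 fell (background 0.888%), and 7 members (23.3%) had an unadjusted p under 0.05, as did 19.1% of all genes. The median change of the members was 0.05 in GREmx1-cre, 0.02 in MREmx1-cre and 0.10 in GRMREmx1-cre on the log2 scale, beside 0.02, 0.04 and 0.03 over all genes. Of the 30, 16 stood above 0 and 14 below in each of the lines that lack MR. The median absolute change was 0.08, 0.19 and 0.21 for the members and 0.11, 0.12 and 0.15 for all genes. Over the same comparisons, 0, 7 and 11 of the 18 excitatory markers were called, 1 of them higher and the others lower in each of the lines that lack MR. The split of all called genes moved with the scaling: 71.8%, 61.8% and 70.2% of them were higher in GREmx1-cre, MREmx1-cre and GRMREmx1-cre, and 56.1%, 50.9% and 47.3% when arrays were scaled by their median. With median scaling 0 members rose and 1 fell in GREmx1-cre, 3 rose and 3 fell in MREmx1-cre (Grm2 and Grm3 no longer called) and 3 rose and 7 fell in GRMREmx1-cre. The 3 comparisons share the dflox arrays. Where all arrays of a group are said below to lie on 1 side of another group, this is description only. The share of all genes that separated in this way was not computed for any comparison.

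**Figure D2:**
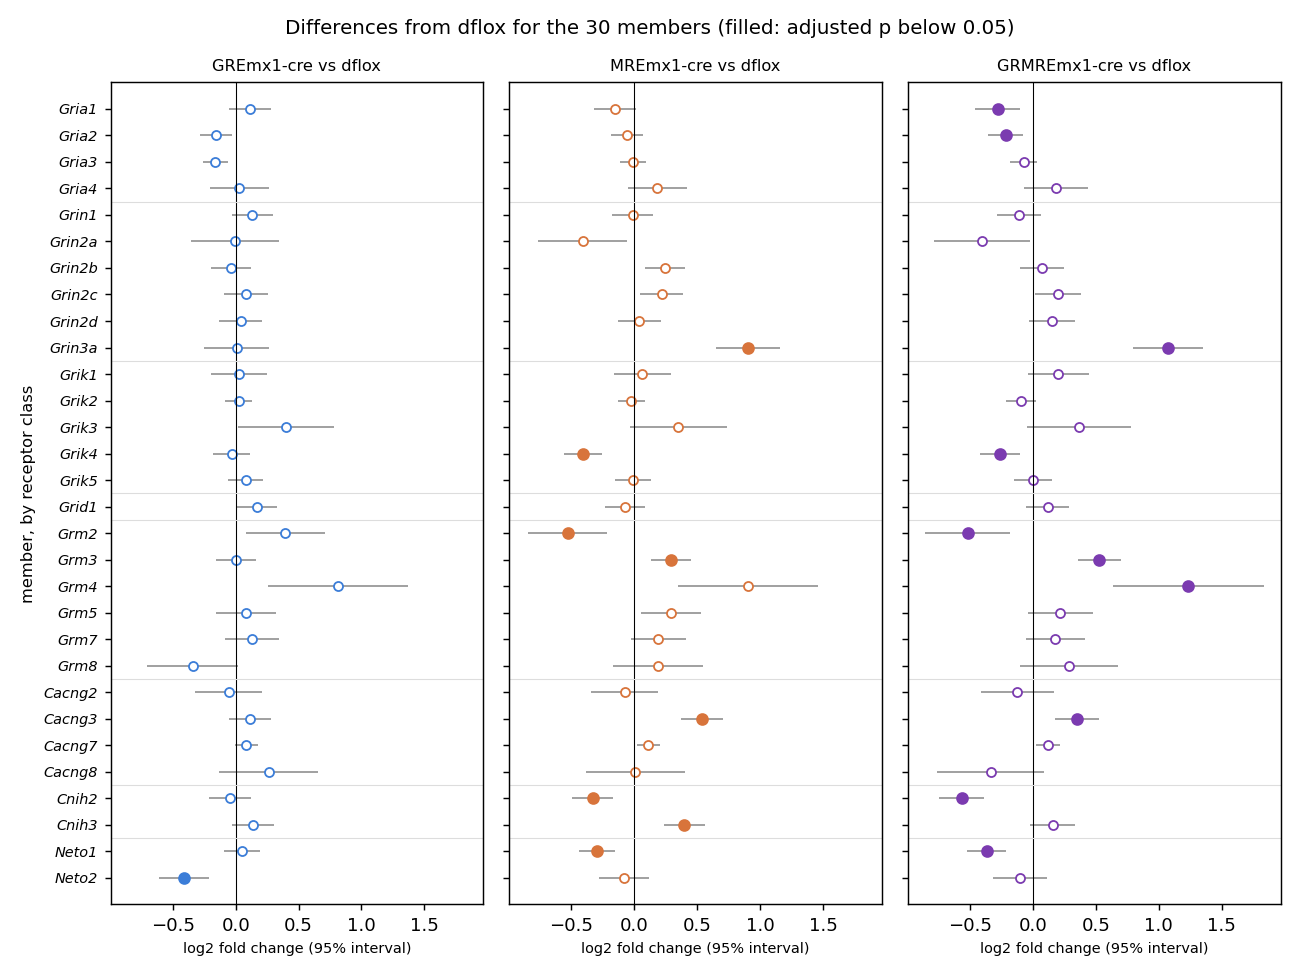
Log2 fold change against dflox of the 30 tested members, ordered by receptor class, with the 95% interval as a line; filled points have an adjusted p below 0.05. The GREmx1-cre panel has 1 filled point, Neto2 at -0.41, and the panels of the lines without MR have 8 and 10, with Grin3a at 0.90 and 1.08.

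The comparison of MREmx1-cre with dflox asks what MR loss does while GR is present. Grin3a, which encodes an NMDA subunit that lowers calcium entry and magnesium block, rose 1.87-fold. The AMPA receptor partners rose as well, Cacng3 1.45-fold and Cnih3 1.32-fold, together with the metabotropic receptor Grm3 1.23-fold. The fallers were Grm2 (1.44-fold), the kainate subunit Grik4 (1.33-fold), the cornichon Cnih2 (1.26-fold) and the kainate partner Neto1 (1.23-fold). No AMPA subunit was called, and 0 of the 4 had an unadjusted p under 0.05.

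Among NMDA subunits the change lay in Grin3a. Its level was 0.96, 0.82, 1.42 and 1.05 on the dflox arrays, 1.02, 1.13, 1.09 and 1.03 in GREmx1-cre, 2.14, 2.02, 1.85 and 1.85 in MREmx1-cre and 1.93, 2.27 and 2.20 in GRMREmx1-cre. Every array of both lines without MR lay above every array with MR, and dflox replicate 3 was the highest of the controls. The log2 fold change was 0.90 ± 0.118, adjusted p = 0.000902 (n = 4 and 4), and 1.02 without dflox replicate 3. Grin1, the obligatory subunit, stood at -0.01. The subunits that set channel kinetics gave -0.41 for Grin2a (adjusted p = 0.157), 0.24 for Grin2b (adjusted p = 0.07), 0.22 for Grin2c and 0.04 for Grin2d, and none was called. Grin2b was called without dflox replicate 2 (0.30, adjusted p = 0.0264) or MREmx1-cre replicate 1 (0.28, adjusted p = 0.0449). For Grin2a the MREmx1-cre arrays all lay below the dflox arrays, at -2.43, -2.46, -2.34 and -2.41 against -1.37, -2.06, -2.28 and -2.27, and dflox replicate 1 stood well above the other controls.

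Of the 5 kainate subunits, Grik4, a high-affinity subunit prominent in CA3 neurons, fell. Grik4 stood at 3.92, 3.87, 3.64 and 3.87 on the dflox arrays, 3.75, 3.88, 3.77 and 3.77 in GREmx1-cre, 3.35, 3.42, 3.42 and 3.49 in MREmx1-cre and 3.59, 3.68 and 3.43 in GRMREmx1-cre. All MREmx1-cre arrays lay below all dflox and GREmx1-cre arrays, and the GRMREmx1-cre arrays overlapped dflox replicate 3. The log2 fold change in MREmx1-cre was -0.41 ± 0.0692, adjusted p = 0.00425, and -0.47 without dflox replicate 3. The other kainate subunits gave 0.06 for Grik1, -0.02 for Grik2 and -0.01 for Grik5, and none was called. The Grik3 probe was not well above background on any dflox array, so its folds are rough. Each dflox array was given its own probe signal or its lowest signal well above background, whichever was higher. The mean of these was set against each knockout's mean. So taken, Grik3 was 1.22-fold higher in GREmx1-cre, 1.18-fold in MREmx1-cre and 1.20-fold in GRMREmx1-cre, each not called. The knockouts had 3, 3 and 2 arrays above background. Their dim arrays entered at the measured signal, so these folds are not strict lower bounds, and each knockout overlapped dflox. Listed markers of CA3 pyramidal cells ran from 0.0380 to 0.265 in dflox, 0.218 to 0.287 in GREmx1-cre, -0.245 to -0.184 in MREmx1-cre and -0.321 to -0.169 in GRMREmx1-cre, and of the 7 tested, 2 fell in MREmx1-cre, 3 fell in GRMREmx1-cre and 1 rose in GREmx1-cre.

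The kainate receptor partner Neto1, which slows the gating of kainate receptors at mossy fibre synapses, fell in the same comparison. Its level was 1.92, 1.83, 1.66 and 1.92 on the dflox arrays, 1.96, 1.98, 1.77 and 1.82 in GREmx1-cre, 1.60, 1.56, 1.52 and 1.48 in MREmx1-cre and 1.48, 1.44 and 1.47 in GRMREmx1-cre. All arrays without MR lay below all arrays with MR, the nearest control being dflox replicate 3. The log2 fold change in MREmx1-cre was -0.29 ± 0.0653, adjusted p = 0.018, and -0.35 (adjusted p = 0.00393) without dflox replicate 3. Neto1 no longer passed the threshold once dflox replicate 1, dflox replicate 4 or MREmx1-cre replicate 4 was omitted (adjusted p up to 0.0551). Its value stayed between -0.35 and -0.27 over all arrays omitted in turn. The gene lies on the chromosome of Nr3c1 with 200 tested genes between them, and dflox and MREmx1-cre mice differ in their Nr3c1 allele by design. In GRMREmx1-cre, whose floxed alleles match dflox by design, Neto1 stood at -0.37. The part of linked alleles in its fall in MREmx1-cre was not tested. Neto2, the relative of Neto1, stood at -0.08 (adjusted p = 0.651) in MREmx1-cre.

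The AMPA receptor partners moved in opposite directions. Cacng3, which encodes the TARP gamma-3, had levels of -0.51, -0.16, -0.39 and -0.39 on the dflox arrays, -0.31, -0.15, -0.31 and -0.21 in GREmx1-cre, 0.17, 0.21, 0.12 and 0.20 in MREmx1-cre and 0.01, -0.16 and 0.11 in GRMREmx1-cre. The MREmx1-cre arrays were the highest, above every array of the other groups. The GRMREmx1-cre arrays overlapped GREmx1-cre, and the lowest of them, at -0.1605, lay barely above the highest dflox array, at -0.1629. Its log2 fold change was 0.54 ± 0.0761, adjusted p = 0.00144. Cnih3 had levels of 1.22, 1.43, 1.28 and 1.34 on the dflox arrays, 1.38, 1.59, 1.45 and 1.41 in GREmx1-cre, 1.57, 1.72, 1.93 and 1.65 in MREmx1-cre and 1.44, 1.48 and 1.51 in GRMREmx1-cre. Every MREmx1-cre array lay above every dflox array, with 1 GREmx1-cre array inside the MREmx1-cre range. The log2 fold change was 0.40 ± 0.0763, adjusted p = 0.00851. Cnih2, the cornichon that binds AMPA receptors in hippocampal pyramidal neurons, had levels of 6.44, 6.61, 6.26 and 6.54 on the dflox arrays, 6.42, 6.45, 6.46 and 6.35 in GREmx1-cre, 6.03, 6.16, 6.23 and 6.10 in MREmx1-cre and 5.78, 6.01 and 5.90 in GRMREmx1-cre. All MREmx1-cre arrays lay below all dflox arrays, by -0.33 ± 0.0764, adjusted p = 0.0215, and the lowest control was again dflox replicate 3. Cnih2 missed the threshold when the fit omitted dflox replicate 2, dflox replicate 4 or MREmx1-cre replicate 4 (adjusted p up to 0.0609). It also missed it with GREmx1-cre replicate 1 and MREmx1-cre replicate 2 both omitted (-0.34, adjusted p = 0.0558). The other TARPs gave -0.07 for Cacng2 (stargazin), 0.11 for Cacng7 and 0.01 for Cacng8, the main hippocampal TARP, and none was called.

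Among metabotropic receptors, the closely related pair Grm2 and Grm3 moved apart. Grm2, a presynaptic receptor of mossy fibre terminals, had levels of -4.10, -3.36, -4.01 and -3.98 on the dflox arrays, -3.47, -3.27, -3.49 and -3.64 in GREmx1-cre, -4.37, -4.23, -4.61 and -4.36 in MREmx1-cre and -4.32, -4.52 and -4.31 in GRMREmx1-cre. All arrays without MR lay below all arrays with MR. Its log2 fold change in MREmx1-cre was -0.53 ± 0.146, adjusted p = 0.0478, close to the threshold, and the call was lost in 14 of the 15 fits that left out an array, with -0.36 without dflox replicate 2, the highest control. Grm3, which neurons and astrocytes express, had levels of 0.46, 0.74, 0.67 and 0.38 on the dflox arrays, 0.56, 0.55, 0.61 and 0.54 in GREmx1-cre, 0.89, 0.88, 0.77 and 0.89 in MREmx1-cre and 1.0, 1.10 and 1.17 in GRMREmx1-cre. Each MREmx1-cre array lay above each dflox array, by 0.30 ± 0.0737, adjusted p = 0.0317, and leaving out dflox replicate 1, dflox replicate 4, or MREmx1-cre replicate 1, 2 or 4 ended the call (0.23 to 0.35 over all arrays left out in turn). Grm4 stood at 0.91 (adjusted p = 0.0533), Grm7 at 0.19 and Grm8 at 0.19, and none was called. Grm4 was called without dflox replicate 3 (1.05, adjusted p = 0.0398), GREmx1-cre replicate 1 (0.91, adjusted p = 0.0365) or MREmx1-cre replicate 3 (1.06, adjusted p = 0.0439). For Grm5, the excitatory receptor of this group, the probe used stood at 0.29 (adjusted p = 0.141), while its 3 other probes stood at 0.47, 0.44 and 0.12, the first of them with adjusted p = 0.00217, the next with 0.0117 and the last with 0.457 over 30873 probes. The Grm5 probes thus disagree on the call, and for no other member in this comparison was another probe called where the probe used was not. The AMPA subunits gave -0.15 for Gria1, -0.06 for Gria2, -0.01 for Gria3 and 0.18 for Gria4, and the delta subunit Grid1 -0.07.

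**Figure D3:**
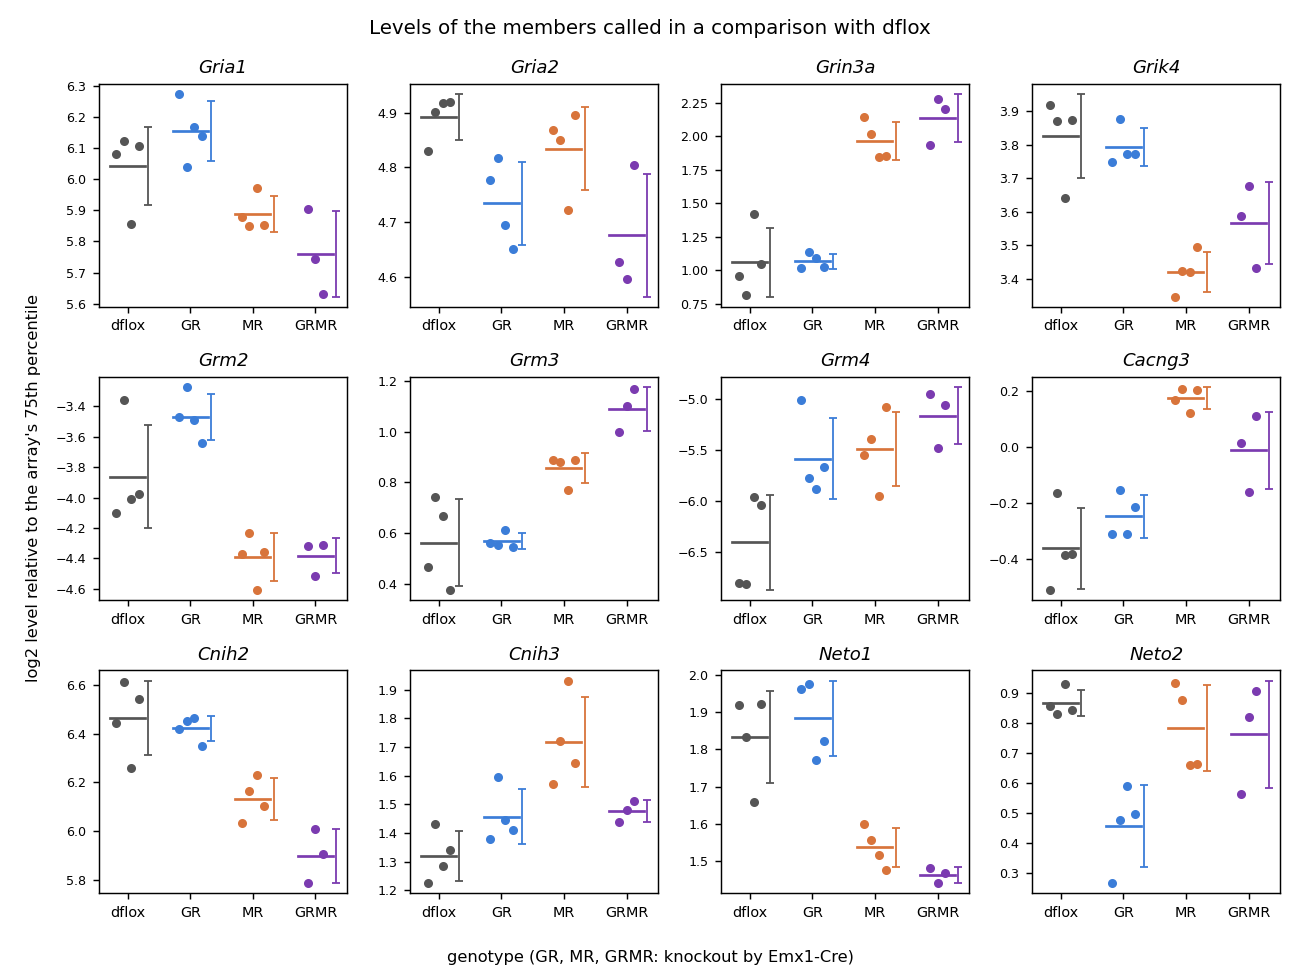
Log2 level on each array, relative to the array's 75th percentile, of the 12 members called in a comparison with dflox; points are arrays, horizontal lines group means and bars the SD, and each panel has its own axis. For Grin3a the lines without MR lie from 1.85 to 2.27 and the lines with MR from 0.82 to 1.42; for Neto2 the GREmx1-cre arrays lie from 0.26 to 0.59, below all dflox arrays.

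For 4 of the 8 members called in MREmx1-cre against dflox, the promoter is given from a table of RefSeq promoters (assembly GRCm38.p6). The 250 bases before their start are printed because these genes rose or fell with the loss of a DNA-binding receptor, 5′ to 3′ on the gene's strand. The windows were chr19:5098522-5098771 on the minus strand for Cnih2, chr1:181352378-181352627 on the plus strand for Cnih3, chr9:106656110-106656359 on the minus strand for Grm2 and chr5:9725353-9725602 on the minus strand for Grm3. Capitals mark AGAACA or its reverse complement TGTTCT, the hexamer that forms an arm of the element bound by GR and MR, and the GC boxes GGGCGG or CCGCCC, on either strand. No match of the hexamer overlapped a GC box.
Cnih2: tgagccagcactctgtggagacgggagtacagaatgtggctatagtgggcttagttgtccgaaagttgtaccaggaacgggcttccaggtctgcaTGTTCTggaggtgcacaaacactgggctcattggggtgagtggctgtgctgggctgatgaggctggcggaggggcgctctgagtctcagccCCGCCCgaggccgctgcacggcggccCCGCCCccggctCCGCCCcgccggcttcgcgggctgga
Cnih3: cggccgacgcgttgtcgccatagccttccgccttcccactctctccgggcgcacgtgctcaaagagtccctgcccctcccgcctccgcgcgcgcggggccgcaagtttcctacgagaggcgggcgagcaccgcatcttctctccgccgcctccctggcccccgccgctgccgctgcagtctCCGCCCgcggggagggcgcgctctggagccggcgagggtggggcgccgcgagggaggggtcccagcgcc
Grm2: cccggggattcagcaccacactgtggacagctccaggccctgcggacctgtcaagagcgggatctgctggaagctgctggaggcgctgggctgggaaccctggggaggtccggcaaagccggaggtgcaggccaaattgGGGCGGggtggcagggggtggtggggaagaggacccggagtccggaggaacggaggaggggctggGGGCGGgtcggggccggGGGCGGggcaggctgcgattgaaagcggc
Grm3: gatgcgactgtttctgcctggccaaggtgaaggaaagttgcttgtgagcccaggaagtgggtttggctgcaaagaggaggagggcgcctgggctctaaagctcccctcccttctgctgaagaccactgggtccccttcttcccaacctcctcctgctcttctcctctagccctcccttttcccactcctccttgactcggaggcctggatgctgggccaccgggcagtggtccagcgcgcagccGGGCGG
The hexamer occurred in the window of Cnih2 alone among these 4, starting 155 bases before the gene's start. It was found in 2 of the 24 windows of the 20 member genes in the table, the other in Grm8, and in 16.1% of all 32851 windows. A GC box occurred in 13 of the 24 and in 32.7% of all windows. The windows of Grm7 overlap and hold the same GC box, which is counted in each. Grm8 and Neto2 also have several windows, so the 24 are not independent. The 4 windows held from 62.4% to 76.0% G and C, highest in Cnih3 and lowest in Grm3, both risers. The whole palindrome of the 2 arms, with 3 bases between them, was in none of the member windows and in 3 of all windows. A match is only a match of letters in this window.

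The comparison of GREmx1-cre with dflox asks what GR loss does while MR is present. Neto2, an auxiliary subunit of kainate receptors, was the only member called, 1.33-fold lower. Its level was 0.86, 0.83, 0.93 and 0.84 on the dflox arrays, 0.26, 0.47, 0.59 and 0.50 in GREmx1-cre, 0.93, 0.88, 0.66 and 0.66 in MREmx1-cre and 0.56, 0.82 and 0.91 in GRMREmx1-cre. All GREmx1-cre arrays lay below all dflox arrays and below all MREmx1-cre arrays. The MREmx1-cre arrays overlapped dflox, and the GRMREmx1-cre arrays overlapped every other group. The log2 fold change was -0.41 ± 0.091, adjusted p = 0.0304, and its other probe stood at -0.34 (adjusted p = 0.151 over 30873 probes). The call was lost when any dflox array, or GREmx1-cre replicate 1, 2 or 4, was left out (-0.45 to -0.35 over all arrays left out in turn), and at -0.39 without dflox replicate 3. Neto2 lies on the chromosome of Nr3c2 with 86 tested genes between them, and the dflox and GREmx1-cre mice differ in their Nr3c2 allele by design. Of the 200 tested genes nearest Nr3c2, 100 on either side, 48 (24%) were called in this comparison, while the share among the remaining named genes was 2.88%. Linked alleles and loss of GR cannot be told apart for Neto2 in this comparison. In GRMREmx1-cre, which lacks GR and by design has the same floxed alleles as dflox, Neto2 stood at -0.10 (adjusted p = 0.534).

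No AMPA, NMDA, kainate, delta, metabotropic, TARP or cornichon gene passed limma's threshold after GR loss. Grm4, a presynaptic receptor, stood highest at 0.82 (adjusted p = 0.109), and Grm2 stood at 0.40 (adjusted p = 0.163). Grm2 was called, as higher, without dflox replicate 2, its highest control (0.56, adjusted p = 0.0195). Grm4 was highest in its group on GREmx1-cre replicate 1, the array of high Synpo2, at -5.01 against -5.88 to -5.67. The AMPA subunits Gria2 (-0.16, adjusted p = 0.167) and Gria3 (-0.16, adjusted p = 0.0828) lay below all dflox arrays on every GREmx1-cre array, and the other Gria3 probe stood at -0.04. Grid1, whose product binds cerebellins, lay above all dflox arrays on every GREmx1-cre array (0.17, adjusted p = 0.222). For Gria2, Gria3 and Grid1 the separation adds no support, since the share of all genes that separated was not computed. Of the other members called in MREmx1-cre, Grin3a stood here at 0.01 (95% interval -0.25 to 0.26), Grm3 at 0.01 (-0.15 to 0.17), Grik4 at -0.03 (-0.18 to 0.12), Cnih2 at -0.04 (-0.21 to 0.12) and Neto1 at 0.05 (-0.09 to 0.19). Cacng3 stood at 0.11 (-0.05 to 0.28) and Cnih3 at 0.14 (-0.03 to 0.30), and for Grm2 the interval was 0.08 to 0.71.

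The comparison of GRMREmx1-cre with dflox gives the loss of both receptors. Grin3a rose 2.11-fold, Grm3 1.44-fold and Cacng3 1.27-fold. Grm4 rose 2.35-fold as measured, but its probe was well above background on only 2 of the 4 dflox arrays, so this size is uncertain. Cnih2 was 1.48-fold lower, Grm2 1.43-fold, Neto1 1.29-fold, the AMPA subunits Gria1 1.22-fold and Gria2 1.16-fold, and Grik4 1.2-fold. The per-array levels given above show every GRMREmx1-cre array on 1 side of every dflox array for Grin3a, Grm3, Cnih2, Grm2 and Neto1, the same by the narrow margin given for Cacng3, and an overlap for Grik4. Grin2a, Grm7, Cacng7 and Cnih3, which were not called, separated completely as well. This separation therefore does not set the called members apart. Log2 fold changes were 1.08 ± 0.128, adjusted p = 0.000211 for Grin3a, 0.53 ± 0.0796, adjusted p = 0.000919 for Grm3 and -0.57 ± 0.0825, adjusted p = 0.000733 for Cnih2. They were -0.37 ± 0.0705, adjusted p = 0.00382 for Neto1 and 0.35 ± 0.0822, adjusted p = 0.0118 for Cacng3. Those of Grik4 (-0.26 ± 0.0747, adjusted p = 0.0314) and Grm2 (-0.52 ± 0.157, adjusted p = 0.0404) lay nearer the threshold, and both calls were lost without dflox replicate 2 or 4 or GRMREmx1-cre replicate 1 or 3, among others. The Cacng3 call was lost without GRMREmx1-cre replicate 3 (adjusted p = 0.0578).

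Gria1 and Gria2 encode the main AMPA subunits of hippocampal pyramidal neurons. Gria1 had levels of 6.08, 6.12, 5.86 and 6.11 on the dflox arrays, 6.27, 6.04, 6.17 and 6.14 in GREmx1-cre, 5.88, 5.85, 5.97 and 5.85 in MREmx1-cre and 5.91, 5.74 and 5.63 in GRMREmx1-cre. Every array without MR was below every GREmx1-cre array, but the GRMREmx1-cre arrays overlapped dflox replicate 3, which lay apart from the other controls. On the log2 scale Gria1 fell by 0.28 ± 0.0816, adjusted p = 0.0338, and its other probe stood at -0.51 (adjusted p = 0.00324 over 30873 probes). Without dflox replicate 3 the value was -0.34 (adjusted p = 0.01). Quantile normalization gave -0.19 (adjusted p = 0.197), and leaving out dflox replicate 1, 2 or 4, or GRMREmx1-cre replicate 2 or 3, ended the call (-0.35 to -0.22). Gria2, the subunit that blocks calcium entry, had levels of 4.83, 4.90, 4.92 and 4.92 on the dflox arrays, 4.78, 4.82, 4.70 and 4.65 in GREmx1-cre, 4.87, 4.85, 4.72 and 4.89 in MREmx1-cre and 4.63, 4.60 and 4.80 in GRMREmx1-cre. All GRMREmx1-cre arrays lay below all dflox arrays, by -0.22 ± 0.0635, adjusted p = 0.0355, but the other probe stood at -0.10 (adjusted p = 0.364 over 30873 probes), and the call was lost in 5 of the 15 fits that left out an array, without dflox replicate 3 among them (-0.21, adjusted p = 0.0693), and under quantile normalization (-0.16). Gria3 stood at -0.07 and Gria4 at 0.18.

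Grm4 encodes a presynaptic receptor that lowers release. Its levels were -6.80, -6.81, -5.96 and -6.03 on the dflox arrays, -5.01, -5.77, -5.88 and -5.67 in GREmx1-cre, -5.55, -5.40, -5.95 and -5.08 in MREmx1-cre and -4.96, -5.48 and -5.06 in GRMREmx1-cre, near the array background: the probe was well above background on 2 of the 4 dflox arrays and on all knockout arrays. All arrays of each knockout lay above all dflox arrays. The log2 fold change in GRMREmx1-cre was 1.23 ± 0.277, adjusted p = 0.00929, beside 0.82 and 0.91 in the single knockouts, which were not called (adjusted p = 0.109 and 0.0533). Thalamic markers, which mark tissue where Grm4 is also expressed, had means from -0.140 to 0.352 in dflox and from -0.209 to 0.194 in GRMREmx1-cre. Of the 7 tested, 2 were called higher and 0 lower in GRMREmx1-cre (28.6%, beside 16.3% of all genes). The part of thalamic tissue in the Grm4 difference was not tested. Cnih3 stood at 0.16 (adjusted p = 0.228) in GRMREmx1-cre and was not called. Grin2a stood at -0.40 (adjusted p = 0.146), Cacng8 at -0.34 (adjusted p = 0.285) and Grm5 at 0.22, with another Grm5 probe called at 0.33 (adjusted p = 0.0114 over 30873 probes). The remaining members lay between -0.12 (Cacng2) and 0.37 (Grik3, with the limit given above).

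The comparison of GRMREmx1-cre with GREmx1-cre asks what MR loss adds where GR is already absent, and it shares no array with MREmx1-cre against dflox. It called 7 of the 30 members (23.3%), against 16.1% of all genes. Of these 3 rose (background 9.23%) and 4 fell (background 6.91%). Grin3a rose 2.1-fold (1.07 ± 0.128, adjusted p = 0.000266), Grm3 1.44-fold (0.52 ± 0.0796, adjusted p = 0.00112) and Grm8, a presynaptic receptor, 1.55-fold (0.63 ± 0.179, adjusted p = 0.0311). Grm2 was 1.89-fold lower (-0.91 ± 0.157, adjusted p = 0.00224), Cnih2 1.44-fold (-0.52 ± 0.0825, adjusted p = 0.00133), Neto1 1.34-fold (-0.42 ± 0.0705, adjusted p = 0.002) and Gria1 1.31-fold (-0.39 ± 0.0816, adjusted p = 0.00647). Each of these 7 had all GRMREmx1-cre arrays on 1 side of all GREmx1-cre arrays, as did Grin1, Grin2a, Grik4 and Cacng8, which were not called. The share of all genes that separated in this way was not computed, so the separation adds no support. Grm8 had levels of -2.30, -2.13, -1.69 and -1.90 on the dflox arrays, -2.70, -2.18, -2.30 and -2.20 in GREmx1-cre, -1.46, -1.71, -2.16 and -1.92 in MREmx1-cre and -1.80, -1.75 and -1.59 in GRMREmx1-cre, and its call was lost without GREmx1-cre replicate 1, the lowest array and the one of high Synpo2 (0.51, adjusted p = 0.0843 when MREmx1-cre replicate 2 was left out too), and without GREmx1-cre replicate 3 or any GRMREmx1-cre array.

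Set side by side, the effects of MR loss with GR present and with GR absent were alike in sign for 26 of the 30 members (86.7%), where 61.3% of all genes tested were alike. Pearson's r across the 30 members was 0.788 and Spearman's rho 0.740, and across all 22864 genes r was 0.378. The points within each comparison share the same arrays and genes are not independent, so no p is given. Grin3a stood at 0.90 and 1.07, Grm3 at 0.30 and 0.52, Grm2 at -0.53 and -0.91, Cnih2 at -0.33 and -0.52, and Neto1 at -0.29 and -0.42, and these 5 were called in both. Cacng3 (0.54 and 0.24), Cnih3 (0.40 and 0.02) and Grik4 (-0.41 and -0.23) were called with GR present and not with GR absent. The excitatory marker list differed in the same direction in both comparisons, with medians of -0.13 and -0.40. For GR loss, the members gave r = 0.198 between the comparison with MR present and the one with MR absent, and 17 of 30 (56.7%) were alike in sign, close to the r of 0.198 and the 51.8% of all genes.

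**Figure D4:**
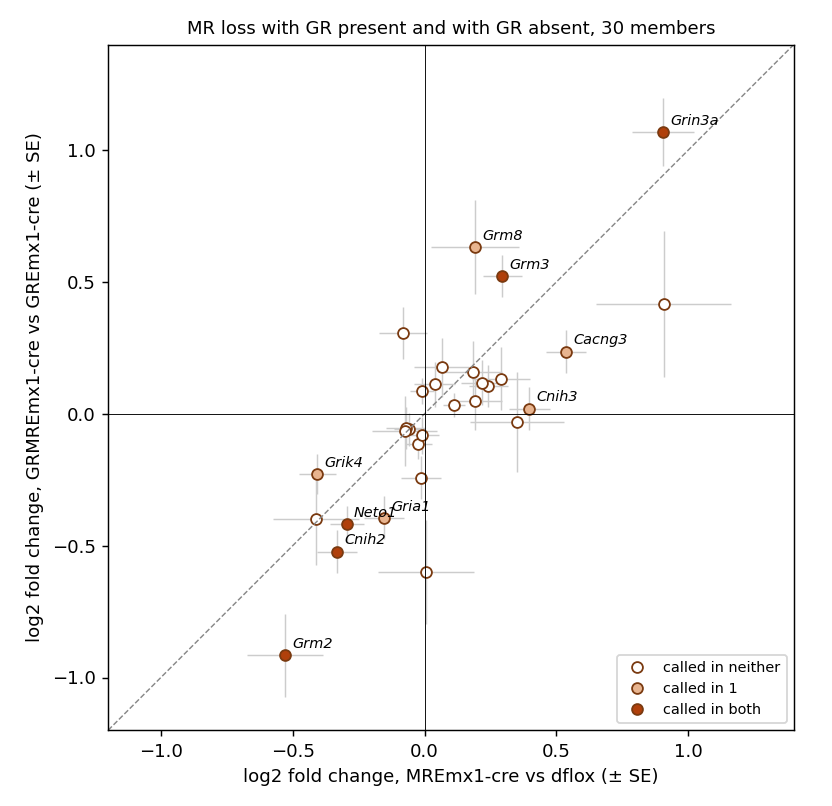
Log2 fold change (± SE) of each of the 30 members for MR loss with GR present (horizontal) and with GR absent (vertical), which share no array; the dashed line marks equal values and the fill whether limma called the gene in neither, 1 or both. Grin3a lies at 0.90 and 1.07, Grm2 at -0.53 and -0.91, and Cnih3 at 0.40 and 0.02.

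The interaction tests whether these effects of MR loss differ with and without GR. In limma it called 0 of the 30 members, where 1.29% of all genes were called, and 5 members (16.7%) had an unadjusted p under 0.05, a share close to the 17% of all genes. None of the 5 passed the adjusted threshold: Cnih3 (-0.38 ± 0.112, adjusted p = 0.116), Neto2 (0.39 ± 0.134, adjusted p = 0.162), Cacng3 (-0.30 ± 0.112, adjusted p = 0.192), Cacng8 (-0.61 ± 0.268, adjusted p = 0.275) and Gria1 (-0.24 ± 0.111, adjusted p = 0.294). The part of linked alleles in the Neto2 value was not tested. With array weights Cnih3 passed (-0.41, adjusted p = 0.0499). For Grin3a the interaction was 0.17 ± 0.174, adjusted p = 0.681. The 95% interval of the interaction was -0.62 to -0.13 for Cnih3 and -0.21 to 0.55 for Grin3a.

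The comparison of GRMREmx1-cre with MREmx1-cre asks what GR loss adds where MR is absent. Limma called 0 of the 30 members, against 2.98% of all genes, and 6 (20%) had an unadjusted p under 0.05, beside 17.2% of all genes. In the double knockout Grm3 stood at 0.23 (adjusted p = 0.15), above MREmx1-cre on every array, and Cnih2, Cnih3 and Cacng3 at -0.23, -0.24 and -0.19, below it on every array. Grik2 also lay below it on every array. These separations add no support, since the share of all genes that separated was not computed. Gria2 stood at -0.16 and Grid1 at 0.19.

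The single knockouts differed from each other in 10 of 30 members (33.3%), against 9.33% of all genes: 5 were higher in MREmx1-cre (background 4.92%) and 5 lower (background 4.42%). With median scaling 4 were higher and 3 lower, and the share of all called genes that were higher went from 52.7% to 63.5%. Higher were Grin3a (0.90), Cacng3 (0.42), Neto2 (0.33), Grm3 (0.29) and Grin2b (0.28). Lower were Grm2 (1.9-fold, -0.92 ± 0.146, adjusted p = 0.00189), Grik4 (-0.37), Neto1 (-0.35), Cnih2 (-0.29) and Gria1 (-0.27). By design the single knockouts differ in their Nr3c1 and Nr3c2 alleles. The part of linked alleles in the differences of Neto1 and Neto2 was not tested. Grm2 stood above dflox in GREmx1-cre and below it in MREmx1-cre, so its gap between the single knockouts was the widest of the members. Grin2b encodes the NMDA subunit of slow kinetics. Its probes disagreed: the one used stood at 0.28 (adjusted p = 0.034), and its 4 other probes at -0.14, 0.30, -0.09 and -0.08, none called. Without both GREmx1-cre replicate 1 (high Synpo2) and MREmx1-cre replicate 2 (low choroid plexus markers) 5 of the 10 calls were lost, those of Gria1, Grin2b, Grm3, Cnih2 and Neto2.

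The other genes of the glutamate synapse were taken from lists of further receptor and auxiliary genes, postsynaptic scaffold and trafficking genes, and genes of glutamate release, uptake and metabolism, and 76 of the 81 listed were tested. Against dflox, 1 rose and 1 fell in GREmx1-cre, 5 rose and 5 fell in MREmx1-cre, and 7 rose and 11 fell in GRMREmx1-cre (2.63%, 13.2% and 23.7% called, beside 3.15%, 6.81% and 16.3% of all genes). Among further auxiliary genes, Cacng5, a TARP, fell in MREmx1-cre (-1.28 ± 0.274, adjusted p = 0.0153) and in GRMREmx1-cre (-1.25 ± 0.296, adjusted p = 0.0122). Shisa9, an AMPA receptor partner of dentate granule cells, rose in MREmx1-cre (0.48), and Sorcs2, a sorting receptor, fell there (-0.25). Cpt1c, which affects AMPA receptor traffic, fell in GRMREmx1-cre (-0.20).

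Of the 36 scaffold and trafficking genes tested, 4 rose and 3 fell in MREmx1-cre and 6 rose and 6 fell in GRMREmx1-cre. These were 19.4% and 33.3% of the list, beside 6.81% and 16.3% of all genes. Homer3, a scaffold that binds group I metabotropic receptors and that is also in the CA3 list, ran from -1.48 to -0.91 in dflox, -0.67 to -0.40 in GREmx1-cre, -2.17 to -1.85 in MREmx1-cre and -2.27 to -2.01 in GRMREmx1-cre. Against dflox it was higher in GREmx1-cre (0.60 ± 0.117, adjusted p = 0.018) and lower in MREmx1-cre (-0.91 ± 0.117, adjusted p = 0.000867) and GRMREmx1-cre (-1.02 ± 0.127, adjusted p = 0.000268). The distance of Homer3 from Nr3c2 and Nr3c1 was not examined. The part of linked alleles in its differences in the single knockouts was not tested. Nptx1, a pentraxin that gathers AMPA receptors, fell in MREmx1-cre (-0.46) and GRMREmx1-cre (-0.72). Camk2b, the beta subunit of the plasticity kinase, fell in both too (-0.43 and -0.59). Lrrtm2, a synaptic adhesion protein, rose in GRMREmx1-cre (0.39) and stood at 0.22 in MREmx1-cre (adjusted p = 0.067).

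Of the 18 genes of glutamate release, uptake and metabolism, limma called 0 in MREmx1-cre (3 at an unadjusted p under 0.05), 1 in GREmx1-cre and 3 in GRMREmx1-cre. These shares were 0%, 5.56% and 16.7%, beside 6.81%, 3.15% and 16.3% of all genes, so that of GRMREmx1-cre was close to the background. The glutamine transporter Slc38a2 fell in GREmx1-cre (-0.43 ± 0.0995, adjusted p = 0.0369). In GRMREmx1-cre the neuronal glutamate transporter Slc1a1 (-0.21) and the vesicular transporter Slc17a7 (-0.20), which is also in the excitatory list, fell, and Slc7a11, the cystine and glutamate exchanger, rose (0.38).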

How the data were processed

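Single-colour Agilent arrays (Cy3) were read with the scanner software Agilent Feature Extraction, version 12.0 according to the submitters' processing notes. The deposited processed signal is an intensity already corrected for background by the scanner software, per the file headers, and other values, flags of 0 or 1, mark outlier spots, saturated spots and those well above background. The authors' deposited value table held the same intensity at 45018 of 45018 spots on each array. Raw median and local background intensities were also deposited, per the file headers.

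Intensities of the 43379 spots that were not controls were log2 transformed, minus the 75th percentile of the array. Outlier spots were left out and spots of a probe averaged. Probes were named by accession through a RefSeq gene table (28223 with a symbol, 12951 without, 0 with several); the array was designed on build mm9, per the file headers. Probes had to be well above background on 3 or more arrays (30873 passed), with the probe of highest mean for each gene (22864 genes). All 15 arrays entered a group means fit in limma 3.58.1 (R 4.3.3, lmFit and eBayes), and adjusted p-values are limma's after Benjamini-Hochberg adjustment over all genes tested, with "called" meaning below 0.05. The number of arrays limits the precision. The replicate number was also the position on the slide, and all arrays were scanned on 1 day. The fit was tested on simulated data. Single probes of a member were fitted over all 30873 probes.

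Members and gene lists were chosen with earlier results of these data known. Members called against dflox or in the interaction are given with every array, and from each further list the 4 genes with the smallest adjusted p against dflox are named; Grm8, Grin2b, Grm5 and other members were singled out after their values were seen. Alternatives were median and quantile scaling, normexp background correction (offset 50, on the median signal, since the mean signal was not used here), other filters, the mean over probes, the value table, a replicate block, array weights, only the groups compared, and each array left out. Leaving out GREmx1-cre replicate 1 with MREmx1-cre replicate 2 was added after seeing the data. Promoters are from RefSeq, assembly GRCm38.p6. The promoters of other members are not reported here. Plots were made in Python 3.11.15 (matplotlib 3.10.9).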

Additional observations from a re-analysis of the deposited data

Results flagged for a closer look

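In 5 of the 90 groups of 4 arrays checked, 1 array lay far from the other 3 by Dixon's test, and chance alone flags about 1 in 20 groups. On dflox replicate 3, Gria1 stood at 5.86 (the others at 6.08 to 6.12), Grik4 at 3.64 (3.87 to 3.92) and Grm7 at -2.82 (-2.57 to -2.52). On dflox replicate 2, Grin2b stood at 1.89 (1.62 to 1.67). On MREmx1-cre replicate 3, Grm3 stood at 0.769 (0.880 to 0.890). Levels are log2 intensities relative to the array's 75th percentile.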

How the results depend on the processing

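Across the 26 alternatives, the calls of Grin3a and Cacng3 in MREmx1-cre against dflox, of Grin3a, Grm3, Grm4, Cnih2 and Neto1 in GRMREmx1-cre against dflox, of Gria1, Grin3a, Grm3, Cnih2 and Neto1 in GRMREmx1-cre against GREmx1-cre, and of Grin3a and Cacng3 in MREmx1-cre against GREmx1-cre held, except that Grm4 was not tested with probes well above background on all 15 arrays, so its call held in 25. Over the arrays left out in turn, the count of members called ran from 0 to 1 in GREmx1-cre, 4 to 8 in MREmx1-cre and 6 to 10 in GRMREmx1-cre against dflox, 6 to 9 for GRMREmx1-cre against GREmx1-cre, 0 to 1 for GRMREmx1-cre against MREmx1-cre and 5 to 10 for MREmx1-cre against GREmx1-cre, and stayed at 0 for the interaction. The 1 in GREmx1-cre was Grm2, not Neto2, without dflox replicate 2. The lowest counts against dflox came without dflox replicate 4 or MREmx1-cre replicate 4 for MREmx1-cre, and without dflox replicate 2 or 4 or GRMREmx1-cre replicate 3 for GRMREmx1-cre.

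Normexp background correction called 0 members in GREmx1-cre, 2 in MREmx1-cre and 20 in GRMREmx1-cre against dflox, 17 for GRMREmx1-cre against GREmx1-cre, 14 against MREmx1-cre and 2 for MREmx1-cre against GREmx1-cre. Of all 22864 genes it called 13, 105, 14121, 14086, 13668 and 173 in the same order, so the high counts were not particular to the members. It moved the median of all genes in GRMREmx1-cre against dflox from 0.03 to 0.42, and its fitted background mean was -804.5 to -30.61 on the GRMREmx1-cre arrays and -0.331 to 2.423 on the others. It turned the sign of Grik2 in GRMREmx1-cre against dflox (0.59), GREmx1-cre (0.59) and MREmx1-cre (0.58), of Grm2 against dflox (1.0) and GREmx1-cre (0.73), of Grik3 (1.52) and Grid1 (0.87) against GREmx1-cre, and of Grik5 (-0.31) and Grm7 (0.60) against MREmx1-cre. With no filter on dim probes the counts were 0 in GREmx1-cre and 6 in GRMREmx1-cre against dflox, and 6 for MREmx1-cre against GREmx1-cre. With array weights they were 11 for GRMREmx1-cre against GREmx1-cre and 1 for the interaction. With only the groups compared they were 3 in MREmx1-cre and 5 in GRMREmx1-cre against dflox, in a fit with fewer arrays. Without GREmx1-cre replicate 1 and MREmx1-cre replicate 2, chosen after seeing the data, they were 0 in GREmx1-cre and 5 in MREmx1-cre against dflox and 5 for MREmx1-cre against GREmx1-cre. Other causes were not tested.

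With a replicate block the counts were 1, 8 and 10 against dflox, 6 for GRMREmx1-cre against GREmx1-cre and 10 for MREmx1-cre against GREmx1-cre, with other genes among them: Gria2 was lost and Grik3 gained in GRMREmx1-cre against dflox, Grm8 was lost against GREmx1-cre, and Grin2b and Neto2 were lost and Gria3 and Cnih3 gained in MREmx1-cre against GREmx1-cre. Same-numbered arrays of different groups had residual correlations of -0.0259 to 0.194 (mean 0.0691), over 0.1 in 6 of 21 pairs. Differently numbered arrays had -0.147 to 0.113 (mean -0.0231), over 0.1 in 1 of 63 pairs. Of the 15 arrays, 14 were closest to their own number, which is also the slide position. The main fit left the number out, and the cause of this likeness was not tested. Signal over background limits Grik3 and Grm4 in dflox.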
